A study of Mus musculus with 12 samples.

Results

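Accessible chromatin was mapped by ATAC-seq, in which a transposase inserts adapters into open DNA, in 12 libraries of primary cortical neurons from E18 C57BL/6 wild-type mice. The 4 groups held 3 libraries each, all given as batch 1. PBS was the control. PFF libraries came from neurons exposed for 7 days to pre-formed fibrils of human wild-type alpha-synuclein, the protein that aggregates in Parkinson's disease. PFF+MLi-2 neurons received the same fibrils and, for 5 days, MLi-2, a kinase inhibitor of LRRK2. PFF+Rab5 ASO neurons received the fibrils and, for 3 days, antisense oligonucleotides against the early endosome GTPases Rab5a and Rab5b. For the last 2 groups the titles and treatment labels name PFF, whereas a free-text description names PBS, and the titles were followed. All neurons were wild type, no inhibitor or oligonucleotide was given without fibrils, and the labels do not name the culture behind a library. Per the study's methods, a biological replicate was 1 pregnancy, whose cultures were divided among the groups at random; whether libraries with the same replicate number share a pregnancy is not given in the sources used here.

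The regions described here had a peak in PBS, none in PFF, and a peak again once LRRK2 was inhibited. The peaks of all 12 libraries were merged wherever they overlapped by at least 1 bp, which gave 263785 regions. Members were chosen by 3 conditions: a peak in 3 of 3 PBS libraries, a peak in 0 of 3 PFF libraries, and a return in 2 or all 3 of the PFF+MLi-2 ones. This left 441 members, 201 of them with a peak in 3 of 3 PFF+MLi-2 libraries and 240 with a peak in 2 of 3. They made up 50.2% of the 879 regions with a peak in all PBS and no PFF library, and the other 438 of these returned in at most 1 PFF+MLi-2 library. When a library was left out, the rule changed with it: the PBS and PFF conditions then rested on 2 libraries in place of 3, which is looser, and the return had to be in 2 of 2 PFF+MLi-2 libraries in place of 2 of 3, which is stricter. The effect of a library and that of the changed requirement cannot be told apart in these settings. The share was 27.9% without PBS replicate 2 and 33.4% without PBS replicate 3. With the stricter return it was 28.4% and 31.1% without PFF+MLi-2 replicates 2 and 1, beside 22.9% when a peak in all 3 was asked for. Every difference among PBS, PFF and PFF+MLi-2 in what follows was selected on by these conditions and is given as a description. The conditions did not use the PFF+Rab5 ASO libraries, the position of the regions or their sequence, although PFF+Rab5 ASO peaks entered the merging that set the region bounds. Without PFF+Rab5 ASO replicate 1, 2 or 3 the members numbered 441, 440 or 439. The number of members moved in the same settings: without PFF replicate 1, 2 or 3 it was 1263, 871 or 670, without PBS replicate 2 or 3 it was 960 or 768, and without PFF+MLi-2 replicate 1 or 2 it was 274 or 248. With an equal number of top peaks from each library it was 673, which took in 262 of the 441.

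Chromatin opens where nucleosomes are displaced by transcription factors, at promoters near transcription start sites and at distal enhancers, most of which lie in introns or between genes. LRRK2 phosphorylates a set of Rab GTPases that direct vesicle traffic through endosomes and lysosomes, and MLi-2 blocks that kinase activity. Rab5 marks early endosomes and recruits the effectors by which they fuse. Distal elements in cortical neurons are known to carry motifs of NEUROD, AP-1, MEF2, NFI, RFX and homeodomain factors. Genes of lysosome biogenesis often carry the CLEAR-type E-box, bound by TFEB and TFE3.

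The windows of 201 bases centred on the summit of 9 members are shown, from the GRCm38 reference, forward strand, so that members whose values are given below can be read as sequence: 3 that also held a peak in 3 of 3 PFF+Rab5 ASO libraries (Gabrg3, Adk and the region near Gm5270), 3 that held none there (Acvr1c, Csgalnact1 and Dcstamp), and 3 more at start sites of protein-coding genes. Capitals mark matches on either strand to any of 14 short motifs that were searched.
Gabrg3 intron, chr7:57214201-57214401: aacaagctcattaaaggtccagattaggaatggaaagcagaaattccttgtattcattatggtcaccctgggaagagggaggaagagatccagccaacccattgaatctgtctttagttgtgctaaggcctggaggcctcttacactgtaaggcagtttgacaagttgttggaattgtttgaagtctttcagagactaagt
Adk intron, chr14:21101544-21101744: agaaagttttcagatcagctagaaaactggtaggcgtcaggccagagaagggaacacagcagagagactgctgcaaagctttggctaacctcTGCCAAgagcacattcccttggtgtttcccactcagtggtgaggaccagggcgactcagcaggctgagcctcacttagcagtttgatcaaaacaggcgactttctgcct
intergenic, upstream of Gm5270, chr2:161265290-161265490: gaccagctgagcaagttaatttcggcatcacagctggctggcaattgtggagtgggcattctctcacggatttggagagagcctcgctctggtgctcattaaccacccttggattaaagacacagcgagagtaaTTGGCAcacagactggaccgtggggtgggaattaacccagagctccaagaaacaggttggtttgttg
near Acvr1c, chr2:58377816-58378016: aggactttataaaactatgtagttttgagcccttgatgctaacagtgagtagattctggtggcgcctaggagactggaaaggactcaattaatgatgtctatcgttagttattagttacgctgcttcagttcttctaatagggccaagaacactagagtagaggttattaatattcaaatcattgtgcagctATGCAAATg
Csgalnact1 intron, chr8:68404384-68404584: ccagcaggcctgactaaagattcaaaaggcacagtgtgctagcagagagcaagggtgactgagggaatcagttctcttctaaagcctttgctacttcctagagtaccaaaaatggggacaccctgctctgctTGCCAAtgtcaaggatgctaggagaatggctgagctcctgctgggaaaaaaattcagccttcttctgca
Dcstamp start, chr15:39746591-39746791: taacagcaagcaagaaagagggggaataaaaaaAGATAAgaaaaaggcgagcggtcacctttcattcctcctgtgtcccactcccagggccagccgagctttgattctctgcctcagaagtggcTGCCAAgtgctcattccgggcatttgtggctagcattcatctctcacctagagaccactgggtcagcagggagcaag
Qtrt2 start, chr16:43869633-43869833: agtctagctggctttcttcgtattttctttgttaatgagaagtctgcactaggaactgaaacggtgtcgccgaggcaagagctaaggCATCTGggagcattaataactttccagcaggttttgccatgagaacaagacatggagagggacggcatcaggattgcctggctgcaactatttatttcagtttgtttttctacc
Casd1 start, chr6:4600057-4600257: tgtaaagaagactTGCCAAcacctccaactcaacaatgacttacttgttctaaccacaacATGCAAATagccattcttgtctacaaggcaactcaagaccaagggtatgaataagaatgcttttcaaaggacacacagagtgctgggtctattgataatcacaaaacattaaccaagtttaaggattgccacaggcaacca
C2cd3 start, chr7:100429198-100429398: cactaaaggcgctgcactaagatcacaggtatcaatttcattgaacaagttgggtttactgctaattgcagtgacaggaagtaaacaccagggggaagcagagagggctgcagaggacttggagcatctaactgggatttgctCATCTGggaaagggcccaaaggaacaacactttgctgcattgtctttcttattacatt

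Among these windows, the Gabrg3 one held no match to the 14 motifs. The NFI half-site TTGGCA, read as TGCCAA on the other strand, was present in the windows of Adk, Gm5270, Csgalnact1, Dcstamp and Casd1. The octamer of POU factors, ATGCAAAT, was present near Acvr1c and Casd1. The neuronal E-box CAGATG, read as CATCTG on the other strand, was present at Qtrt2 and C2cd3. A match is a run of letters and not a measured binding site.

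The CLEAR-type E-box CACGTG, the motif named most often with the lysosome, lay within 100 bp of the summit of 7 of the 440 members on assembled chromosomes. The windows of 41 bases around it are shown for 6 of them, with the motif in capitals. The seventh lay within 1 kb of a start site in St7. The motif near Itprid2 lay outside the bounds of its member, chr2:79630468-79630605.
intergenic, chrX:163039056-163039096: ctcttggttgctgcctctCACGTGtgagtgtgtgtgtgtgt
intergenic, chr3:61303599-61303639: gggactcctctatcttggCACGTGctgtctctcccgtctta
Tnik intron, chr3:28426265-28426305: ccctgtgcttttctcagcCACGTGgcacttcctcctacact
Syt16 intron, chr12:74242218-74242258: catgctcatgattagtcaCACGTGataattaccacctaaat
Tenm2 intron, chr11:36974298-36974338: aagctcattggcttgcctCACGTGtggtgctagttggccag
near Itprid2, chr2:79630643-79630683: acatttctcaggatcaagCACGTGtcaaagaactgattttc

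Their PFF+Rab5 ASO peaks were mixed: the regions in Tnik and Syt16 and the one on chromosome X held a peak in 3 of 3 of those libraries, and the regions near Itprid2 and in St7 in 0 of 3. Tnik encodes a kinase of the Wnt pathway and of the postsynaptic density, and Syt16 a synaptotagmin family protein. No gene of lysosome biogenesis was among the genes of these 7.

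The members were modest peaks. MACS2, the peak caller, writes for each peak the fold of the fragment pileup at the summit over the local background, from which the pileup itself was recovered as a whole number for 100% of peaks. Over the members, the median summit pileup was 14, 12 and 13 fragments in PBS libraries 1 to 3, and 14, 13 and 14 in PFF+MLi-2 libraries 1 to 3. The smallest pileup called anywhere was 8 fragments in every PBS and PFF library and 8 or 9 in the others. The median member stood 4 to 6 fragments above the smallest pileup called, and regions open in all 12 libraries had medians of 22 to 28 fragments.

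**Figure D1:**
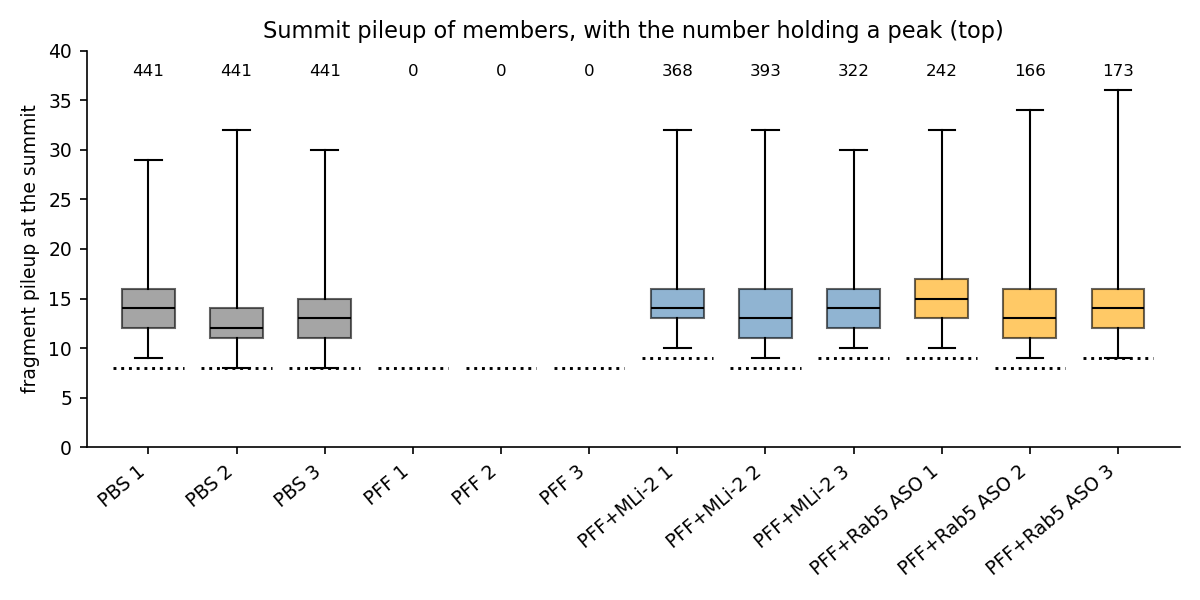
Fragment pileup at the summit (y axis) of the members' peaks in each of the 12 libraries (x axis). Boxes give the median and quartiles, whiskers the lowest and highest member, numbers on top the members with a peak, and dotted lines the smallest pileup called at any peak of that library. Medians lie between 12 and 15 fragments wherever members have a peak, and the PFF columns are empty by the choice of members.

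In rank, too, the members were low in the lists. A height percentile was given to each peak by its fold within its own library, so that 50 is the middle of that list. The median member stood at 39.7, 29.9 and 33.0 in the PBS libraries and at 39.9, 39.6 and 31.7 in the PFF+MLi-2 libraries. Only 36.7%, 13.2% and 19.7% of members were above the middle of the 3 PBS lists. Averaged over the libraries with a peak, 234 of 441 members ranked higher in PFF+MLi-2 and 207 higher in PBS, with a median difference of 0.765 percentile points. These means leave out the PFF+MLi-2 libraries in which no peak was called.

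What a missing PFF peak can mean depends on depth. The flat background was 1.73, 1.59 and 1.5 fragments in the PFF libraries and 1.72, 1.72 and 1.78 in PBS, so it was lower in PFF libraries 2 and 3 than in any PBS library. It was 1.88, 1.77 and 1.90 in the PFF+MLi-2 libraries and 2.11, 1.82 and 2.03 in the PFF+Rab5 ASO libraries, all above every PFF library. This background thus moved with the return and, in PFF libraries 2 and 3, with the loss. The numbers of peaks did not follow it. They were 172377, 166426 and 151900 in the PFF libraries, 180989, 137417 and 152173 in PBS and 146019, 147991 and 145497 in PFF+MLi-2. Scaled by these backgrounds, the mean PBS pileup of all 441 members was at or above 8 fragments, the smallest pileup called at any peak, in every PFF library. It was at least 1.5 times that in all 3 PFF libraries for 156 members (35.4%) and at least 2 times for 28 (6.35%). These counts are upper limits for the members that stood so far above the call, since 8 fragments sufficed only where the local background was low, and 31.9% to 38.8% of peaks in the PBS and PFF libraries lay at the flat background. The part of depth in the losses and in the returns was not tested. In a culture, fewer cells with the region open and less opening per cell cannot be told apart.

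Of 216981 regions with a peak in any PBS or PFF library, 0.405% were lost in this sense. The reverse of the second step, a peak in 3 of 3 PFF+MLi-2 and 0 of 3 PFF libraries, was met by 767 of 205235 regions (0.374%) and by 201 members, which the rule fixes in large part. Members had a median width of 193 bp (quartiles 155 and 240 bp), against 145 bp for the fibril-lost regions without return and 216 bp for the 20872 regions that kept at least 1 PFF peak beside 3 PBS peaks but were not open in all 12 libraries. For lost regions that returned in 0, 1, 2 and 3 PFF+MLi-2 libraries the median was 136, 155, 183 and 207 bp. A width is that of merged peaks, and the rule gives members more PFF+MLi-2 peaks to merge, so nothing is read from the difference. The 3 PBS summits of a member spread over a median of 50 bp, and the median PBS summit lay a median of 18.5 bp from the median PFF+MLi-2 summit. The overlap of these peaks is part of the rule.

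Values on either side of the thresholds were set side by side. The median of the mean PBS percentile was 38.7 for members with 3 returned libraries, 33.6 for those with 2, 32.0 for the 257 lost regions with 1 and 28.7 for the 181 with 0. On the PFF side, 1472 regions met the other conditions but had a peak in 1 of 3 PFF libraries. Their median PBS percentile was 38.5, and a PFF+Rab5 ASO peak was present in a mean of 60.9% of them. On the PBS side, 959 regions had a peak in 2 of 3 PBS libraries and met the other conditions, with a median PBS percentile of 29.9 and a mean PFF+Rab5 ASO share of 37.9%. The members' own mean shares were 43.0% with 3 returned libraries and 44.7% with 2. Just inside, a region in an intron of Fbxw7, a subunit of a ubiquitin ligase, chr3:84843666-84843875, had folds of 5.88, 5.89 and 6.12 in PBS and of 4.51 and 5.05 in PFF+MLi-2 libraries 1 and 2. A region in an intron of Slc17a1, a phosphate transporter gene, chr13:23873449-23873581, had 5.88, 5.89 and 5.76 in PBS and 3.82 and 4.48 in PFF+MLi-2 libraries 1 and 3. Just outside, an intergenic region, chr8:30202903-30202996, had folds of 6.61, 5.15 and 6.48 in PBS and 8.32 in PFF+MLi-2 library 1 alone. A region in an intron of Abcc4, a transporter gene, chr14:118491779-118492034, had 6.59, 5.52 and 4.68 in PBS and 5.05 in PFF+MLi-2 library 2 alone.

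The 10 leading members, by mean percentile over PBS and PFF+MLi-2 among those with all 3 returned libraries, had folds of 4.48 to 9.37 over background in those libraries. The first, chr12:68683255-68683540, lay far from genes, with its nearest start site, that of n-R5s61, 82.4 kb away. Its folds were 7.72, 6.63 and 5.04 in PBS, 9.37, 8.30 and 7.24 in PFF+MLi-2 and 5.46 and 4.26 in PFF+Rab5 ASO libraries 1 and 2. It was higher in 2 of 3 PFF+MLi-2 libraries than in any PBS library, and the groups overlapped.

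Adk encodes adenosine kinase, which clears adenosine. The member in its intron, chr14:21101562-21101752, had folds of 5.66, 5.08 and 5.40 in PBS, 8.32, 7.22 and 7.55 in PFF+MLi-2 and 5.12, 4.97 and 3.63 in PFF+Rab5 ASO. All PFF+MLi-2 folds were above all PBS folds, and the PFF+Rab5 ASO folds were within or below the PBS range. Gabrg3 encodes a gamma subunit of the GABA-A receptor. Its intronic member, chr7:57214156-57214379, 173 kb inside the gene, had folds of 6.98, 6.63 and 5.76 in PBS, 6.94, 5.77 and 6.90 in PFF+MLi-2 and 6.75, 5.68 and 4.29 in PFF+Rab5 ASO. The 3 groups overlapped there, and no PFF library held a peak.

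Acvr1c encodes ALK7, a type I receptor of the TGF-beta family. The member 20.02 kb upstream of it, chr2:58377820-58378093, had folds of 7.35, 5.52 and 6.48 in PBS and 7.98, 6.85 and 5.52 in PFF+MLi-2, and no peak in any PFF+Rab5 ASO library. Csgalnact1 encodes an enzyme that starts chondroitin sulfate chains. Its intronic member, chr8:68404320-68404551, had 6.25, 7.73 and 5.40 in PBS and 5.90, 6.13 and 4.83 in PFF+MLi-2, likewise with no PFF+Rab5 ASO peak. These and the Dcstamp region below were the 3 members highest in PBS that had a peak in 0 of 3 PFF+Rab5 ASO libraries. Among those with a peak in 3 of 3, the highest in PBS were the Gabrg3 and Gm5270 regions and one in an intron of Mkln1, chr6:31413579-31413852, with PBS folds of 6.98, 5.89 and 6.12.

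Other leading members were intergenic or at a start site. Near Etnppl, an enzyme of phosphoethanolamine breakdown found in astrocytes, chr3:130649574-130649882 had folds of 6.25, 5.15 and 7.55 in PBS and 5.20, 6.49 and 6.55 in PFF+MLi-2. It held a peak in PFF+Rab5 ASO libraries 1 and 3 and none in library 2. The intergenic member chr2:161265250-161265456 had 7.35, 5.89 and 7.20 in PBS, 6.59, 5.77 and 4.48 in PFF+MLi-2 and 5.78, 4.97 and 4.95 in PFF+Rab5 ASO. Another intergenic member, of 141 bp and 3.82 kb from the start of Gm38337, had 6.56, 5.89 and 5.76 in PBS and 5.54, 5.18 and 7.24 in PFF+MLi-2, and no PFF+Rab5 ASO peak.

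**Figure D2:**
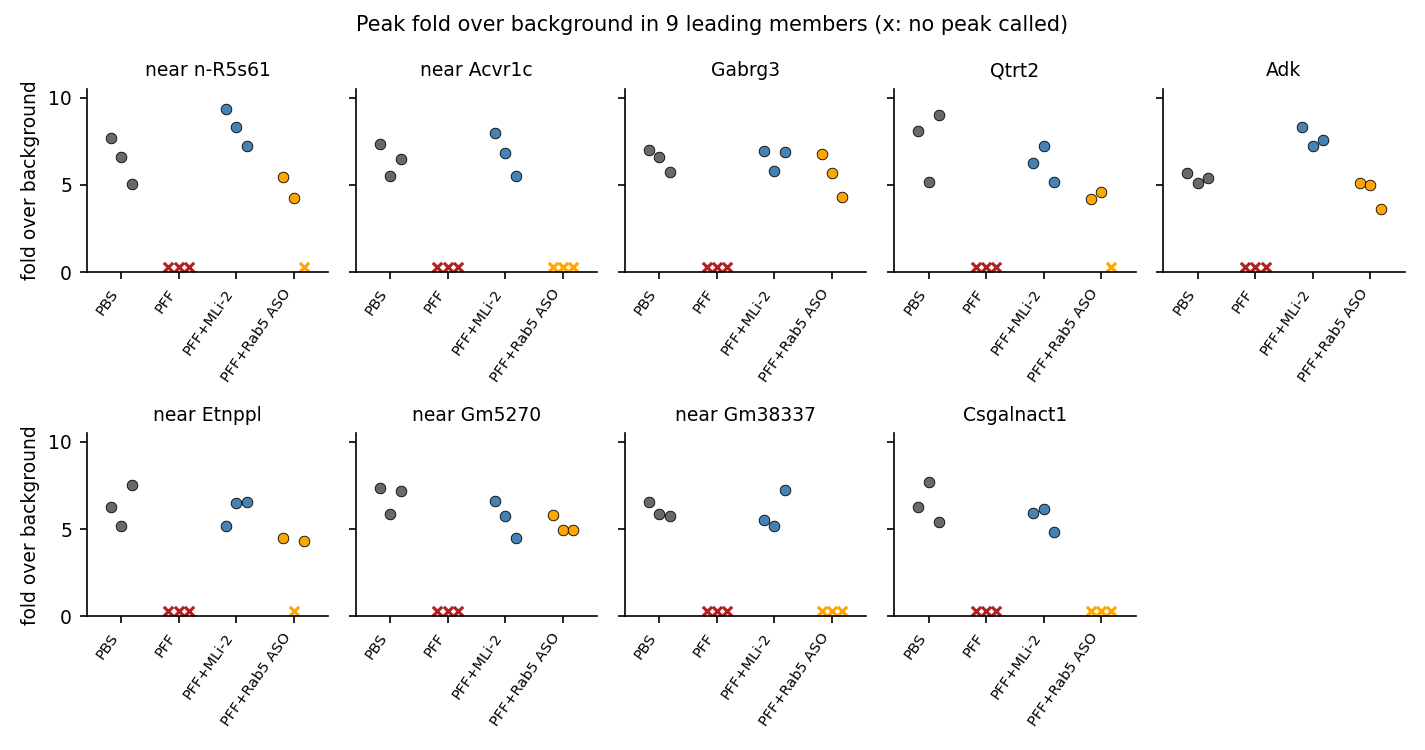
Peak fold over the local background (y axis) of 9 of the 10 leading members in the 4 groups (x axis), 1 point for each of 3 libraries, left to right in replicate order, with crosses near 0 where no peak was called. All 9 have 3 PBS and 3 PFF+MLi-2 points between 4.48 and 9.37 and none in PFF, as the choice of members requires, while PFF+Rab5 ASO points number 0, 2 or 3.

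The PFF+Rab5 ASO libraries gave the only readout of treated cells outside the 3 conditions. A peak was present in 242 (54.9%), 166 (37.6%) and 173 (39.2%) of the 441 members in libraries 1, 2 and 3, a mean of 43.9% ± 9.52 (SD, n = 3). Among the fibril-lost regions without return the shares were 48.9%, 42.2% and 34.7%, a mean of 41.9% ± 7.08 (SD, n = 3). Over all merged regions they were 58.7%, 53.5% and 49.99%. Members were higher by 6.02 and 4.53 percentage points in libraries 1 and 3 and lower by 4.60 in library 2. The mean difference was 1.98 points ± 5.75 (SD, n = 3), with a two-sided exact sign-flip permutation p of 0.75, where 3 libraries allow no p below 0.25. The value moved when a library was left out and the rule was applied to the rest, with the requirements changed as above. Without PBS replicate 1, 2 or 3 it was 6.35, 8.62 or 5.44 points, and without PFF replicate 1 or 2 it was 5.86 or 5.35. In these 5 settings, and with summit windows merged in place of whole peaks (6.81 points), members were higher in all 3 PFF+Rab5 ASO libraries, at the smallest permutation p that they allow. It was 4.15 without PFF replicate 3, 4.43 without PFF+MLi-2 replicate 3 and 4.70 without PFF+Rab5 ASO replicate 2, and 0.253 and 0.797 without PFF+Rab5 ASO replicates 1 and 3. It was -2.84 without PFF+MLi-2 replicate 1 and 0.524 without replicate 2.

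**Figure D3:**
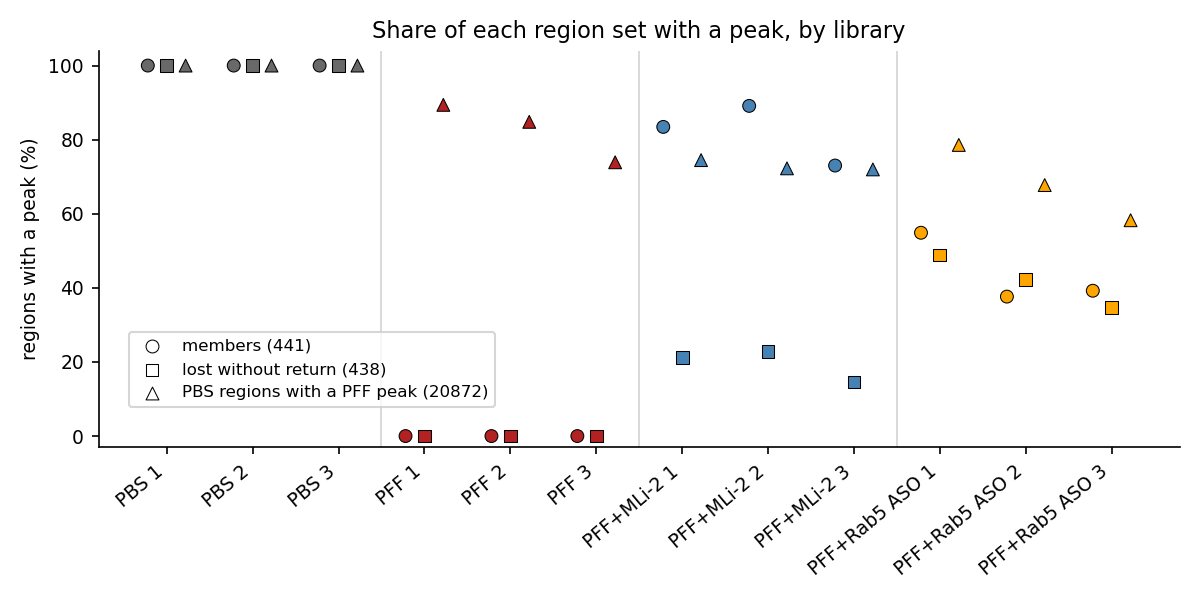
Share of regions with a peak (y axis, percent) in each library (x axis) for the members, the lost regions without return and the PBS regions that kept a PFF peak. Shares in PBS, PFF and PFF+MLi-2 follow from the choice of members; in the 3 PFF+Rab5 ASO libraries members range from 37.6% to 54.9%, beside 34.7% to 48.9% for lost regions without return and 58.3% to 78.6% for the regions with a PFF peak.

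By number of libraries, 104 members held a peak in 3 of 3 PFF+Rab5 ASO libraries, 80 in 2, 109 in 1 and 148 in 0. A peak in at least 2 was held by 184 members (41.7%, Wilson 95% interval 37.2 to 46.4%), by 40.6% of lost regions without return (36.1 to 45.3%) by 73.3% of the regions with a PFF peak (72.7 to 73.9%) and by 51.0% of all merged regions. These intervals cover counting error only. A peak in 3 of 3 PFF+Rab5 ASO and 0 of 3 PFF libraries was found in 2.64% of 230866 regions and in 23.6% of members, beside 20.1% of the lost regions without return. A peak in 3 of 3 PBS and 0 of 3 PFF+Rab5 ASO libraries was found in 0.991% of 227503 regions and in 33.6% of members, beside 34.9% of the lost regions without return. Both shares of members exceed the background because the PFF and PBS conditions of the rule enter them, so nothing is read from that excess.

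Members with 3 returned libraries did not stand apart from those with 2. A PFF+Rab5 ASO peak was present in a mean of 43.0% ± 11.8 (SD, n = 3 libraries) of the former and 44.7% ± 7.84 (SD, n = 3 libraries) of the latter. Height in PBS went with the share more clearly. All fibril-lost regions were put in 3 bins of equal size by their mean PBS percentile, cut at 28.3 and 37.9. From the low to the high bin the mean share in members was 33.6%, 44.0% and 50.5%, and in lost regions without return 35.8%, 43.9% and 49.1%. In each of the 3 PFF+Rab5 ASO libraries the members' share was higher in the high bin than in the low one. Within a bin the mean of members less that of lost regions without return was -2.18 points (low), 0.112 (middle) and 1.36 (high).

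**Figure D4:**
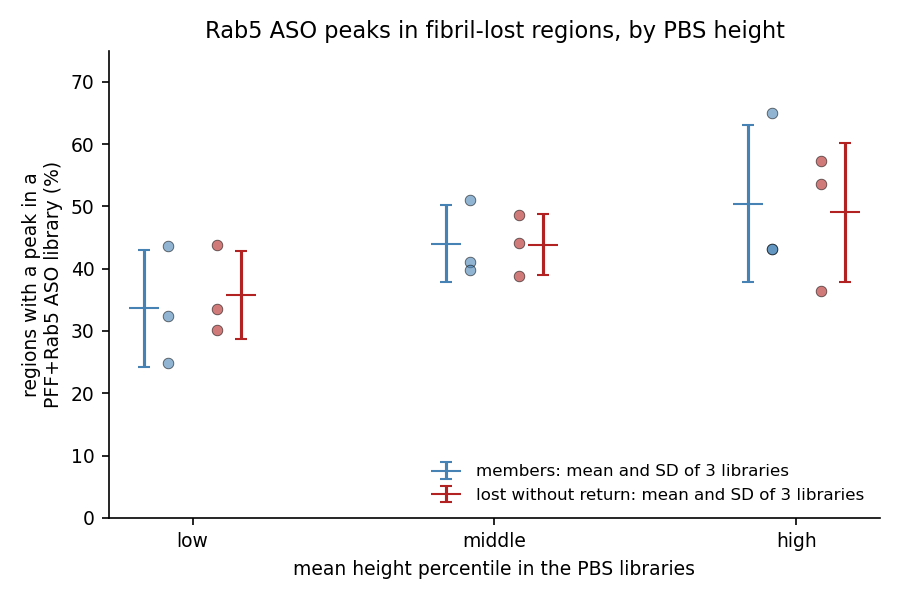
Share of fibril-lost regions with a peak in a PFF+Rab5 ASO library (y axis, percent) by bin of the mean height percentile in PBS (x axis). Points are the 3 libraries and bars the mean and SD; members go from a mean of 33.6% to 50.5% and lost regions without return from 35.8% to 49.1%.

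Most members were distal. By the summit and the GENCODE vM21 annotation, 36 members (8.16%, Wilson 95% interval 5.95 to 11.1%) lay within 1 kb of a transcription start site, 18 (4.08%) in exons, 219 (49.7%, 45.0 to 54.3%) in introns and 167 (37.9%, 33.5 to 42.5%) between genes. With summit windows merged in place of whole peaks, 22.1% lay within 1 kb of a start site. A single member was on an unplaced contig with no annotation. Start sites were near 16.5% of all merged regions, 28.0% of regions open in all 12 libraries, 12.6% of regions with a PFF peak and 11.6% (8.97 to 14.99%) of lost regions without return. Introns held 40.6% (36.1 to 45.3%) of the lost regions without return and 43.4% of all regions. They held 46.6% of regions with a PFF peak, which was inside the members' interval. The intervals of members and lost regions without return met for introns and overlapped for start sites. The median distance of a member to a start site was 12.9 kb, and 79 members lay over 50 kb away. Regions are not replicates of a treatment, so these shares carry no test.

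Base composition and repeats set the members little apart. Their median GC content was 48.7%, beside 47.7% for lost regions without return, 48.9% for regions with a PFF peak and 51.4% for regions open in all 12 libraries. A summit in a masked repeat was found in 32 members (7.27%), beside 8.66% of all regions. Members were spread over all autosomes and chromosome X, with none on Y, and the most, 34, on chromosome 11, which holds 7.71% of members and 6.20% of all regions.

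One motif of the 14 had a share in members whose interval did not reach that of the lost regions without return. The neuronal E-box CAGATG, bound by NEUROD-type factors, was within 100 bp of the summit of 64 of 440 members (14.5%, Wilson 95% interval 11.6 to 18.1%) and of 103 of 437 lost regions without return (23.6%, 19.8 to 27.8%). It was near 24.99% of regions with a PFF peak, 20.6% of regions open in all 12 libraries and 22.2% of all regions. The members' share was the lower of the 2 fibril-lost sets in 18 of 18 alternative settings, where it ran from 11.68% to 18.3%, beside 20.1% to 26.1% for the lost regions without return. It was singled out among the 14 motifs after the values were seen, and no test was made.

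**Figure D5:**
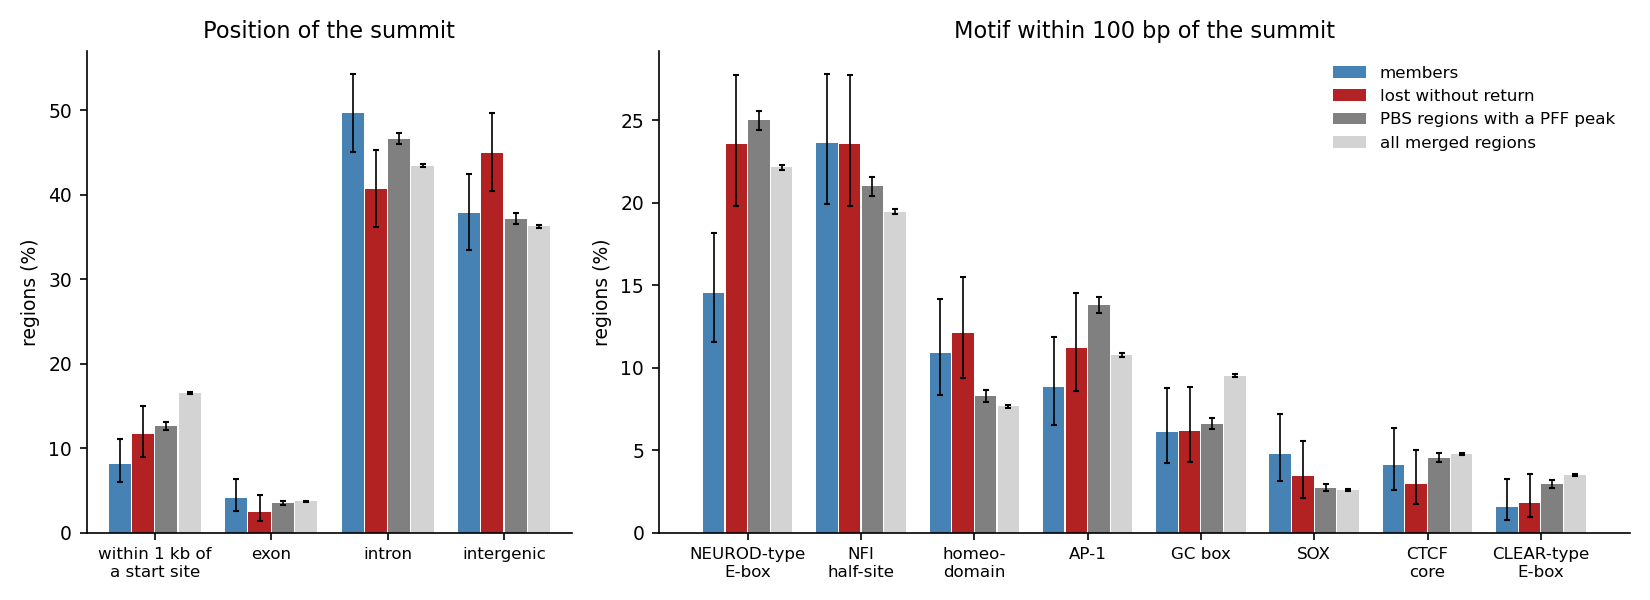
Share of regions (y axis, percent) by position of the summit (left) and with a motif within 100 bp of the summit (right) for members, lost regions without return, PBS regions with a PFF peak and all merged regions. Error bars are Wilson 95% intervals; the NEUROD-type E-box is near 14.5% of members and 23.6% of lost regions without return, and start sites are within 1 kb of 8.16% of members and 16.5% of all regions.

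Other motifs differed less between the fibril-lost sets. The NFI half-site TTGGCA was near 23.6% of members (19.9 to 27.8%) and 23.6% of lost regions without return, beside 19.5% of all regions. The homeodomain core TAATTA was near 10.9% (8.33 to 14.2%) and 12.1%, beside 7.66%. The SOX site ACAATGG was near 4.77% (3.14 to 7.19%) and 3.43%, beside 2.60%. For these 3 motifs the members' interval lay above the share of all regions, and so did that of the lost regions without return for TTGGCA (19.8 to 27.8%) and TAATTA (9.39 to 15.5%). In regions with a PFF peak the shares were 21.0% (TTGGCA), 8.27% (TAATTA) and 2.72% (ACAATGG). For TTGGCA this was inside the members' interval, and for TAATTA it was just under its lower end of 8.33%. The AP-1 site TGANTCA was near 8.86% (6.55 to 11.9%) and 11.2%, beside 10.8%. The GC box GGGCGG, typical of promoters, was near 6.14% and 6.18%, beside 9.52%. CACGTG was near 1.59% (0.773 to 3.25%) and 1.83%, beside 3.52%, so the CLEAR-type E-box was no more frequent in members than elsewhere.

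The other 7 motifs were the cAMP response element TGACGTCA in 1 member (0.227%, beside 0.405% of all regions), the ETS site CCGGAAG in 3 (0.682%, beside 1.66%), the RFX half-site GTTGCCAT in 4 (0.909%, beside 2.14%), the octamer ATGCAAAT in 8 (1.82%, beside 1.77%), the MEF2 core TAAAAATA in 14 (3.18%, beside 3.61%), the CTCF part AGGGGGC in 18 (4.09%, beside 4.77%) and the GATA site AGATAA in 40 (9.09%, beside 8.77%). Each was searched on both strands, and none of the intervals of these 7 lay apart from the interval of the lost regions without return.

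The 25 members within 1 kb of start sites of protein-coding genes were diverse. Ranked by height, the first was Qtrt2, a subunit of the enzyme that places queuosine in tRNA, with its summit 0.338 kb upstream of a start site. At chr16:43869628-43869891 its folds were 8.08, 5.15 and 8.99 in PBS, 6.24, 7.22 and 5.17 in PFF+MLi-2 and 4.18 and 4.62 in PFF+Rab5 ASO libraries 1 and 2. Dcstamp, which encodes a membrane protein of cell fusion, had at chr15:39746648-39746855 folds of 5.62, 6.88 and 6.13 in PBS and 5.17, 6.13 and 4.76 in PFF+MLi-2, and no PFF+Rab5 ASO peak. Car13, a carbonic anhydrase, was covered at its start itself (chr3:14641623-14641861), with 5.88, 4.42 and 5.76 in PBS, 6.24, 5.41 and 5.17 in PFF+MLi-2 and 5.46 and 3.96 in PFF+Rab5 ASO libraries 1 and 3. PBS and PFF+MLi-2 folds overlapped at all 3.

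Casd1, which acetylates sialic acids, had at chr6:4599991-4600363 folds of 5.46, 5.26 and 4.46 in PBS and 5.49, 5.39 and 6.55 in PFF+MLi-2. Dock4, a guanine nucleotide exchange factor of Rac and Rap GTPases, had at chr12:40788495-40788784 folds of 4.18, 4.74 and 5.10 in PBS and 5.36, 5.67 and 5.16 in PFF+MLi-2, with no PFF+Rab5 ASO peak. All its PFF+MLi-2 folds were above its PBS folds. C2cd3, a centriole protein needed for cilia, had at chr7:100429244-100429388 folds of 3.87, 5.60 and 4.68 in PBS and 5.88 and 5.72 in PFF+MLi-2 libraries 1 and 2. The other start-site members taken by height were Ccdc54, Inmt, Srsf4, Zfp592, Stau1 and Acss3, with PBS folds from 3.24 to 7.00. Srsf4 is a splicing factor and Stau1 an RNA-binding protein of mRNA transport. Among these 12, a PFF+Rab5 ASO peak was held in 0 of 3 libraries by Dcstamp, Ccdc54, Dock4, Srsf4, Zfp592 and Acss3 and in 3 of 3 by none.

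A gene could be given to 334 members, as the gene of a start site within 1 kb, the host gene, or the nearest protein-coding gene within 50 kb. These were 326 different genes. No gene had 3 or more members, and 8 had 2 (Abcc6, Ctnna3, Ctxn3, Etl4, Kcnj16, Prkg1, Tenm2 and Wapl). Only 1 pair of members lay within 5 kb of each other, at chr8:93731173-93731483 and chr8:93731526-93731701. Its PBS folds were 4.54, 3.67 and 4.50 for the first and 5.68, 4.64 and 3.84 for the second, and the pair returned in all 3 PFF+MLi-2 libraries. Otherwise members lay singly.

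Of 394 genes in 13 lists on neuronal and endolysosomal function, 25 members had a listed gene. Nothing is read from this total, and the share of each list is set beside that of all regions. Synaptic adhesion genes, which hold pre- and postsynaptic membranes together, had the most, with 8 members (1.81%), beside 0.913% of lost regions without return and 1.01% of all regions. They were in Cntn4, Cntn6, Cntnap2, Cntnap5a, Cntnap5b, Nrxn3 and, with 2, Tenm2. These are long genes that offer many regions, and the count of 8 was not tested. In Tenm2, a teneurin of synaptic adhesion, chr11:37107081-37107507 had folds of 6.98, 4.79 and 5.04 in PBS, 5.90 and 4.33 in PFF+MLi-2 libraries 1 and 2 and 8.35, 6.39 and 6.27 in PFF+Rab5 ASO. In Nrxn3, a neurexin, chr12:90027106-90027363 had 6.61, 5.52 and 3.6 in PBS, 5.90, 6.49 and 5.17 in PFF+MLi-2, with a fold of 5.46 in library 1 of PFF+Rab5 ASO alone. In Cntn4, a contactin of axon guidance, chr6:106340937-106341158 had 5.14, 5.52 and 4.32 in PBS, 5.90, 5.77 and 4.48 in PFF+MLi-2 and 6.42 and 5.68 in PFF+Rab5 ASO libraries 1 and 2. The PBS and PFF+MLi-2 folds overlapped in all 3 genes.

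Receptor and release genes had 4 members together. The glutamate list had 2 of 441 (0.454%, beside 1.14% of lost regions without return and 0.765% of all regions), in Grm3, a metabotropic receptor, and Grik4, a kainate receptor subunit. The Grm3 member, chr5:9703127-9703266, had folds of 6.61, 4.79 and 5.04 in PBS, 5.55, 5.05 and 5.52 in PFF+MLi-2, with a fold of 4.62 in library 2 of PFF+Rab5 ASO. The Grik4 member, chr9:42651331-42651563, had 5.14, 5.47 and 4.48 in PBS and 5.01, 4.78 and 5.19 in PFF+MLi-2. Gabrg3 was the single gene of the GABA-A and glycine receptor list (0.227% of members, beside 0 lost regions without return and 0.127% of all regions). Erc2, a scaffold of the active zone, was the single release gene (0.227%, beside 0.457% of lost regions without return and 0.309% of all regions). Its folds at chr14:28450699-28450986 were 5.10, 5.15 and 5.40 in PBS, 3.82, 4.60 and 4.75 in PFF+MLi-2 and 5.67, 3.91 and 5.90 in PFF+Rab5 ASO. There every PFF+MLi-2 fold was below every PBS fold.

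Axon guidance and voltage-gated channel genes had 2 members each (0.454%), beside 0.457% and 0.228% of lost regions without return and 0.629% and 0.664% of all regions. Epha6, an ephrin receptor, and Slit3, a guidance ligand, had PBS folds of 4.04 to 5.76 and 4.31 to 4.97. Cacna1a, the pore of P/Q-type calcium channels, had at chr8:84460831-84461006 folds of 5.02, 4.55 and 4.36 in PBS, 4.23, 4.21 and 4.16 in PFF+MLi-2, with a fold of 4.06 in library 3 of PFF+Rab5 ASO.

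The cortical projection neuron factors had 2 members (0.454%, beside 0.392% of all regions and 0 lost regions without return). Near Nfib, an NFI factor of the developing cortex, chr4:82730357-82730566 had folds of 4.04, 4.42 and 5.04 in PBS and 5.20, 7.22 and 6.21 in PFF+MLi-2, all above PBS, and no PFF+Rab5 ASO peak. In Tle4, a corepressor marking deep-layer neurons, chr19:14566593-14566829 had 4.41, 4.42 and 5.40 in PBS and 4.16 and 5.05 in PFF+MLi-2 libraries 1 and 2. The interneuron factor list had 3 members (0.680%, beside 0.228% of lost regions without return and 0.172% of all regions). In the coding exon of Sp8, a zinc finger factor, chr12:118848905-118849096 had 3.6, 3.98 and 3.84 in PBS and 4.44 and 4.01 in PFF+MLi-2 libraries 2 and 3. In Npas3, chr12:53561866-53562153 had 5.88, 4.42 and 3.96 in PBS and 5.55 and 5.05 in PFF+MLi-2 libraries 1 and 2. The Sp8 peak was among the lower ones, at a mean PBS percentile of 10.8.

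The endosome and lysosome lists had 1 member each. The lysosome and autophagy list had 1 member (0.227%, beside 0 lost regions without return and 0.136% of all regions), in Atp6v0d1, a subunit of the proton pump that acidifies lysosomes. At chr8:105531905-105532009 its folds were 4.69, 4.07 and 5.02 in PBS and 3.63 and 4.59 in PFF+MLi-2 libraries 1 and 2. The list of endosomal Rabs, LRRK2 and parkinsonism genes had 1 (0.227%, beside 0.457% of lost regions without return and 0.215% of all regions). The Atp6v0d1 member held no PFF+Rab5 ASO peak. The list of senescence and TGF-beta signalling had 2 (0.454%, beside 0.228% of lost regions without return and 0.239% of all regions), in Rb1, the retinoblastoma gene, with folds of 5.88, 4.42 and 6.48 in PBS, and Bmpr1b, a BMP receptor, with 4.41, 4.79 and 4.68. The activity-regulated list and the progenitor and glial list had 0 members and 0 lost regions without return each, beside 0.105% and 0.154% of all regions.

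The surroundings of the members were described next. The nearest region with a peak in any PFF library lay a median of 3.33 kb away, and 49 members had one within 200 bp. Within 10 kb of the members lay 392 regions open in all 12 libraries, whose height was compared as a normal score of the fold rank in each library with limma. Between PFF and PBS their median difference was -0.03 on that score, beside -0.02 over all 72465 such regions, and between PFF+MLi-2 and PFF it was 0.01 in both sets. Between PFF+Rab5 ASO and PFF, 18 of the 392 (4.59%) passed an adjusted p of 0.05 in limma, 8 higher and 10 lower, beside 3.83% of all such regions. Between PFF+Rab5 ASO and PBS, 7 (1.79%) passed, all higher, beside 1.63%. These counts fell with the loss of any 1 of the 6 libraries compared: 0 (without PFF+Rab5 ASO replicate 1) to 5 of the 392 (without PFF replicate 1) then passed in limma in the first comparison, and 0 or 1 in the second, with 73 to 88 and 60 to 75 at an unadjusted p under 0.05. The shares of all such regions that passed fell too, to 0 to 1.36% in the first comparison and 0 to 0.0483% in the second. With the replicate number as a block, 14 of the 392 and 2.31% of all such regions passed in the first comparison, and 0 of the 392 and 0 of all 72465 in the second. Shares near the background are no result about the surroundings of the members.

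The cultures were checked against markers by peaks within 1 kb of start sites. All 5 general neuronal genes (Rbfox3, Map2, Tubb3, Snap25 and Syt1), all 5 excitatory and all 4 GABAergic markers held a peak in all 12 libraries. So did all 4 astrocyte, all 4 progenitor and 3 of 4 oligodendrocyte lineage markers, beside 0 of 4 microglial ones. Of the microglial genes, Csf1r held a peak in 7 libraries, P2ry12 in 3, and Aif1 and Cx3cr1 in 0. Peaks at other cell types' genes are thus present in every group. In the order control, fibrils, fibrils with MLi-2 and fibrils with Rab5 ASO, the mean percentile at Aqp4, an astrocyte water channel gene, was 41.8, 12.1, 50.3 and 22.4. At the other astrocyte genes it was 50.7, 31.2, 34.3 and 42.7 (Gfap), 77.7, 73.5, 69.6 and 74.5 (Slc1a3) and 87.1, 86.1, 92.3 and 81.3 (Aldh1l1). The part of such cells in the members was not tested.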

How the data were processed

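Per the labels and the methods of the study, reads were trimmed with Trim Galore 0.6.7, aligned to GRCm38 with Bowtie2 2.5.1 and peaks were called per library with MACS2 2.2.7.1. The authors deposited 12 peak lists (137417 to 184717 peaks each) with a score (10 times -log10 q), the fold (a ratio to the local background), and -log10 p and q; read depth is not given in the sources used here, and the background pileup stood in for it. Summit offsets were deposited as positions. Members and lists were chosen with earlier results of these data known. Positions used GENCODE vM21 and sequences the GRCm38.p6 reference. Named members were the 10 highest of those with 3 returned libraries, up to 12 at protein-coding start sites, up to 3 per gene list, genes with at least 3 members, the 3 highest with 3 or 0 PFF+Rab5 ASO peaks, pairs within 5 kb, and 2 regions either side of the threshold. Heights were tested with limma 3.58.1 after simulation: 61.5% of 200 regions shifted by 2 score units between PFF+Rab5 ASO and PFF were recovered. Shares have Wilson 95% intervals. Some named members are not reported here.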

Additional observations from a re-analysis of the deposited data

How the results depend on the processing

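The number of members depended on the lists. With the same number of top peaks (137417) from every library it was 673 (60.5% of lost regions), of which 262 of the 441 members were part. With 3 of 3 PFF+MLi-2 libraries it was 201 (22.9%). A stricter -log10 q of at least 4, chosen after seeing the data, gave 369 members, took in 178 of the 441, put their share of lost regions at 54.6% and turned the difference from lost regions without return in PFF+Rab5 ASO libraries to -2.28 points. Counting a library only where its peaks covered at least 50% of the region took in 90 of the 441, and the mean PFF+Rab5 ASO share was 33.6%. Merging summit windows gave 612 members, with 22.1% within 1 kb of a start site, 42.6% in introns and a median GC of 50.8%. Leaving out 1 library at a time, which also made the rule looser (PBS, PFF) or stricter (PFF+MLi-2), the number ran from 248 (without PFF+MLi-2 replicate 2) to 1263 (without PFF replicate 1), the share of lost regions from 27.9% to 59.3%, the mean PFF+Rab5 ASO share from 38.9% to 54.8% and the difference from -2.84 (without PFF+MLi-2 replicate 1) to 8.62 points. In 6 settings (without PBS replicate 1, 2 or 3, without PFF replicate 1 or 2, and with summit windows) it was above 0 in all 3 PFF+Rab5 ASO libraries, at the exact permutation floor of 0.25. Of the 392 regions near members, 0 to 5 passed in limma between PFF+Rab5 ASO and PFF and 0 to 1 between PFF+Rab5 ASO and PBS. With the replicate number as a block, added after seeing the data, 14 passed in the first comparison (2.31% of all regions), against 18 (3.83%) without it, and 0 in the second (0 of all 72465), against 7 (1.63%), with 80 at an unadjusted p under 0.05. No source used here ties a number to a pregnancy, and deviations of same-numbered libraries correlated at 0.0196 to 0.0598 across regions, although each PFF+Rab5 ASO library correlated best with its own number. The cause of these shifts was not tested.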
